A study of Chelonus formosanus with 6 samples.

Results

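Immune unigenes of the head of Chelonus formosanus, a braconid wasp that lays into moth eggs and grows inside the larva, are described here: sensors of microbes, the Toll signalling chain, antimicrobial effectors and the melanisation enzymes. A unigene is a cluster of transcripts assembled without a genome, and it stands for a gene or a piece of one. Members were chosen by 20 words searched in the protein description of each unigene in the authors' deposited table, and matches to a vertebrate protein were dropped. The words matched 46 of 41986 unigenes. Dropping 7 vertebrate matches left 39, and a further unigene, TRINITY_DN23579_c0_g1, was added by name, which gives 40 members. That unigene is described only as an uncharacterized protein and matches none of the words; its Pfam protein domain is Spaetzle, the fold of the Toll ligand. The count of called members is given with and without it. No kept match was found for 6 of the words: gram-negative, hymenoptaecin, abaecin, relish, immune deficiency and thioester-containing.

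The libraries were poly(A) RNA of heads on day 1, 3 from females and 3 from males, with no genotype, strain or treatment given in the labels. Whether a library was 1 animal or a pool is not stated, and p-values therefore measure only how these samples spread, part of which may be technical. Each library held 17937367 to 19517856 counts, of which the members took 0.248% to 0.280%. Head markers were present in both sexes, with mean levels of 4481 TPM (transcript level per length, scaled within a library) for rhodopsin (TRINITY_DN25377_c1_g17) and 159 TPM for the odorant receptor coreceptor (TRINITY_DN25907_c2_g3). The coreceptor differed by sex, with 227 TPM in females and 91.2 TPM in males (edgeR adjusted p = 1.06e-05). Of 26 tested head markers, 3 had an adjusted p under 0.05, all higher in females, and 23 did not. That is 11.5%, beside 2.80% of all tested unigenes. Summed head markers overlapped between the sexes, at 17312 to 19058 CPM (counts scaled to a common library total) in females and 18100 to 19535 CPM in males. By CPM, the summed markers of 5 other lists did not overlap between the sexes. Muscle markers summed to 16338 to 22947 CPM in females and 23809 to 26982 CPM in males. Fat body markers summed to 8002 to 8777 CPM in females and 9905 to 10278 CPM in males, and gut markers to 207 to 219 CPM in females and 188 to 201 CPM in males. Sums were made in CPM only. In the authors' TPM the most abundant fat body markers differed in direction. Mean levels in females and males were 3817 and 3495 TPM for vitellogenin-1-like, 2690 and 3004 TPM for apolipophorins, and 628 and 673 TPM for transferrin. Unigenes named venom proteins summed to 8107 to 8648 CPM in females and 7357 to 7785 CPM in males. Most of this came from TRINITY_DN22704_c0_g2, at 7268 to 7776 CPM in females and 6382 to 6809 CPM in males. Its Pfam domain is OS-D and its Swiss-Prot match is Drosophila ejaculatory bulb-specific protein 3. Whether it marks venom gland was not tested. Of the 21 tested venom unigenes, 0 were called higher in females, 2 were called lower and 19 did not pass. The lower ones included TRINITY_DN25103_c1_g3 (log2 difference -5.39, female minus male, edgeR adjusted p = 0.000283). The few reproductive markers summed to 40.4 to 47.8 CPM in females and 38.5 to 39.97 CPM in males. Haemocyte markers, of which nimrod, transglutaminase and serpent had no match, overlapped between the sexes at 437 to 468 CPM in females and 410 to 479 CPM in males. In such whole-head samples fewer cells of a type and less RNA per cell cannot be told apart.

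Insects meet bacteria and fungi with innate immunity alone. In Drosophila, recognition proteins bind wall components such as peptidoglycan and beta-1,3-glucan and start protease cascades, which cut Spaetzle into an active ligand of Toll; Toll then acts through the adaptor MyD88 and the kinase Pelle to free the NF-kB factor Dorsal from its inhibitor Cactus. The output includes antimicrobial peptides and lysozymes made largely by fat body and blood cells, and a separate cascade activates phenoloxidase, which deposits melanin at wounds and on parasites. Several of these families also work in the nervous system, where Dscam proteins guide neurites and some Toll receptors and Spaetzle-type neurotrophins act in development.

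The members spanned a wide range of levels, and 34 of the 40 had enough counts to be tested. The 6 untested members were fragments of at most 252 bases with at most 12 counts in a library. The tested members were at least 574 bases long, and the longest had 8705 bases. By best hit, 28 members matched a braconid protein, 21 of them from Microplitis demolitor. Fragments of 1 gene may be counted apart, since 11 members shared 5 assembly clusters. Mean levels over the 6 libraries were at least 50 TPM for 4 members, at least 10 TPM for 21, and under 5 TPM for 11, beside a median of 6.81 TPM over all tested unigenes. The variation between the 6 libraries had a median coefficient of 14.0% over the tested members and 17.4% over all tested unigenes.

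**Figure D1:**
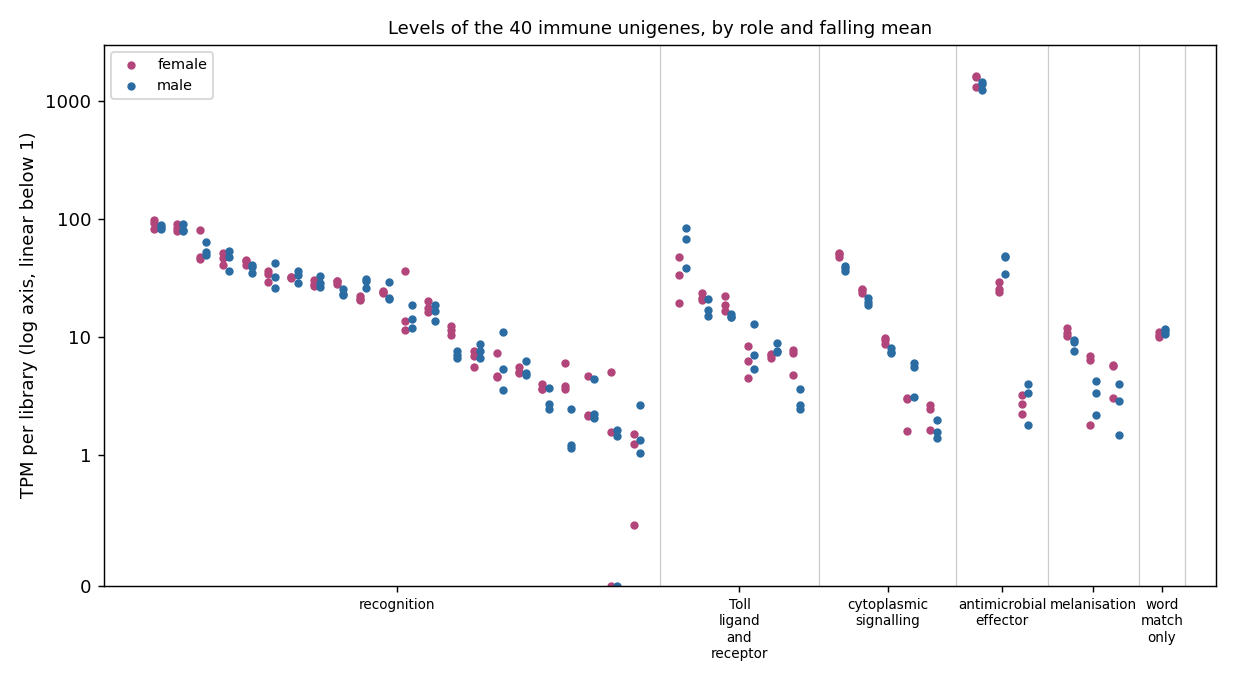
Levels of the 40 immune unigenes in TPM (log axis, linear below 1), grouped by role and ordered by falling mean; each point is 1 library, females left of males. The defensin-2-like unigene stands alone near 1427 TPM, while all other members lie below 100 TPM.

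Between the sexes, 3 of the 34 tested members passed the test (8.82%; edgeR's quasi-likelihood test, Benjamini-Hochberg adjusted p under 0.05), beside 593 of 21196 tested unigenes (2.80%). Higher in females was 1 of the 3, where 1.69% of all tested unigenes were, and lower in females were 2, where 1.11% were. Without the unigene added by name the count was 2 of 33, both lower in females. The 3 calls were a lysozyme and an immunoglobulin-domain protein, lower in females, and the Spaetzle-domain protein, higher in females. At an unadjusted p under 0.05 stood 11 members, where 12.0% of all tested unigenes did. All female libraries lay above all male libraries for 5 members and below them for another 5, together 29.4%. Over all tested unigenes these shares were 8.77%, 8.50% and, together, 17.3%. The median log2 difference of the tested members, female minus male, was -0.03, beside -0.00 over all tested unigenes, with 16 positive and 18 negative values. Without female 2, or without male 2, the count of called members was 1. A log2 difference of at least 1 besides was shown by 1 member, the Spaetzle-domain protein, and by 1.28% of all tested unigenes.

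**Figure D2:**
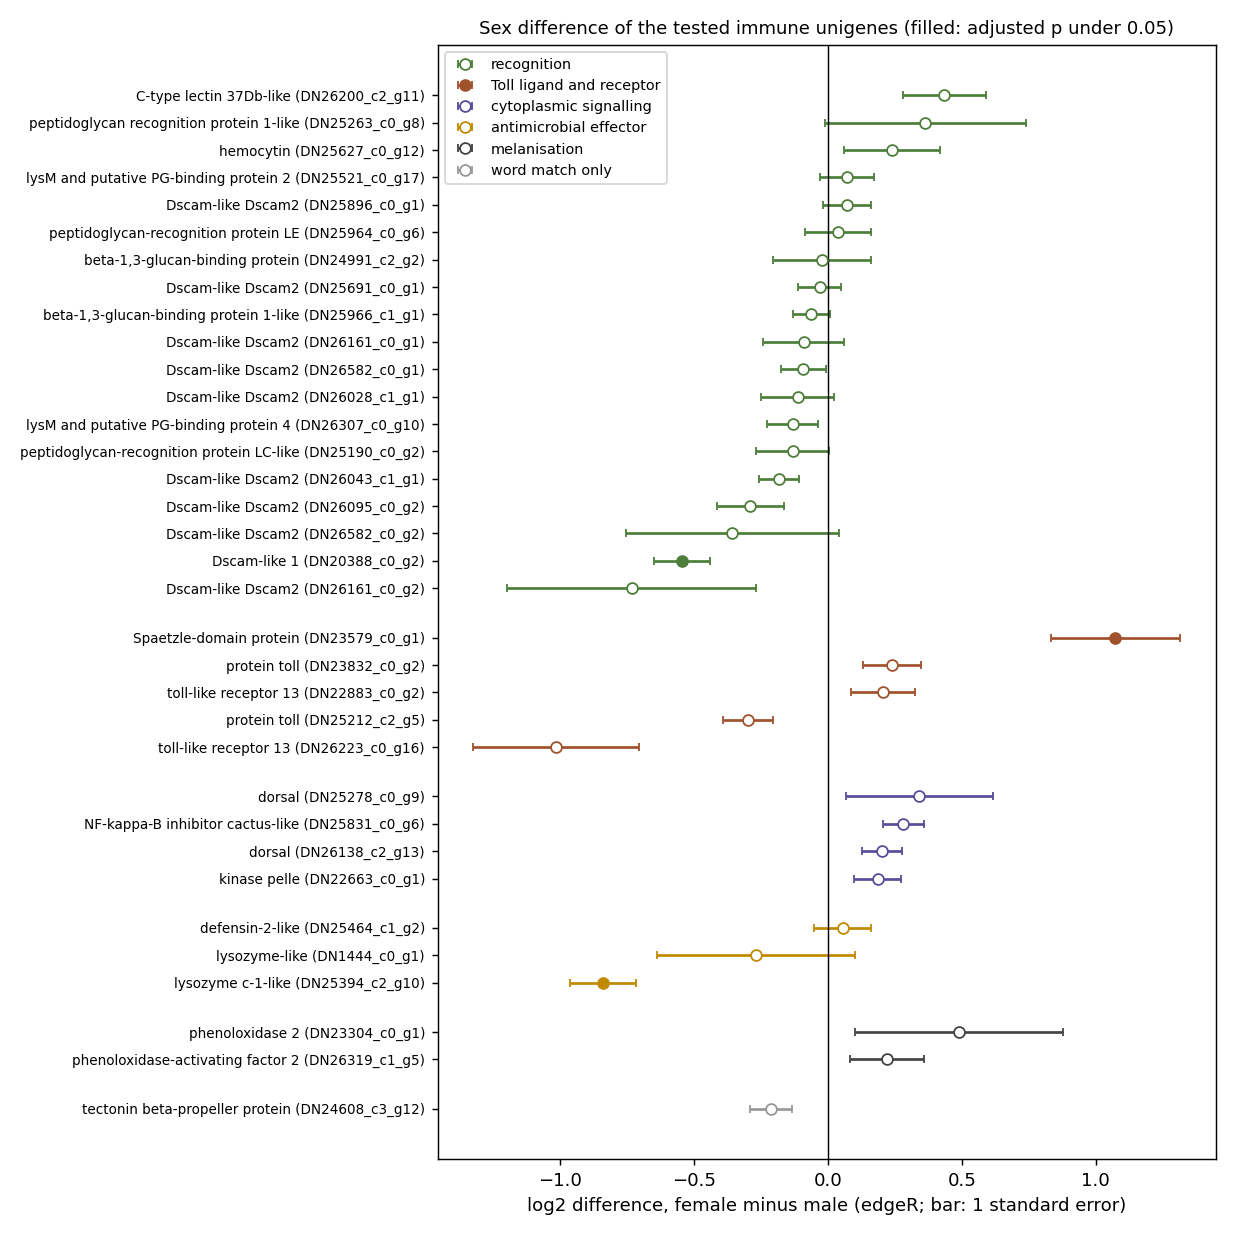
Log2 differences, female minus male, of the 34 tested members by role, with bars of 1 standard error from edgeR; filled points passed an adjusted p of 0.05. The filled points are the Dscam-like protein 1 unigene at -0.55, the Spaetzle-domain unigene at 1.07 and the lysozyme c-1-like unigene at -0.84.

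Recognition proteins formed the largest class, with 22 members of which 19 were tested; 1 was lower in females, 0 were higher and 18 did not pass (edgeR), while 4 had an unadjusted p under 0.05. That is 5.26% called, beside 2.80% of all tested unigenes, of which 12.0% had such an unadjusted p. Recognition proteins bind microbial surfaces or, for Dscam, mainly other Dscam molecules. The beta-1,3-glucan-binding protein 1-like unigene (TRINITY_DN25966_c1_g1), whose homologues bind fungal wall glucan, had 122, 119 and 115 CPM in females and 123, 121 and 127 CPM in males. Its libraries overlapped between the sexes and varied by 3.39% (coefficient of variation over the 6 libraries), the least of the members. Its log2 difference was -0.06 ± 0.0679 (SE; edgeR adjusted p = 0.822). A second glucan-binding unigene, TRINITY_DN24991_c2_g2, had 50.3, 49.2 and 83.5 CPM in females and 58.5, 70.5 and 57.2 CPM in males, with female 3 above every other library and a variation of 21.5%.

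Peptidoglycan recognition proteins sense bacterial walls or cut peptidoglycan, and none of the 3 passed the test. The unigene named peptidoglycan recognition protein 1-like (TRINITY_DN25263_c0_g8), with an amidase domain and a Swiss-Prot match to Drosophila PGRP-LB, an enzyme that degrades peptidoglycan and dampens the response, had 7.18, 8.55 and 22.5 CPM in females and 7.78, 9.33 and 12.7 CPM in males. Female 3 was again the highest library, and the other 2 females lay within or below the male range. Its log2 difference was 0.36 ± 0.375 (SE; edgeR adjusted p = 0.804) and -0.34 without female 3 (adjusted p = 0.613). PGRP-LE (TRINITY_DN25964_c0_g6), named after the Drosophila sensor of bacteria inside and outside cells, ran from 26.3 to 33.8 CPM in females and from 25.2 to 32.5 CPM in males. PGRP-LC-like (TRINITY_DN25190_c0_g2), named after the Drosophila membrane receptor of the Imd pathway, ran from 11.0 to 12.4 CPM in females and from 11.7 to 14.6 CPM in males, although the best Swiss-Prot match of both was Drosophila PGRP-LF. Both overlapped between the sexes.

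A C-type lectin 37Db-like unigene (TRINITY_DN26200_c2_g11), of a family of calcium-dependent sugar-binding proteins, had 6.46, 6.75 and 6.51 CPM in females and 4.57, 4.81 and 5.21 CPM in males. The groups did not overlap, and the log2 difference was 0.43 ± 0.155 (SE; edgeR adjusted p = 0.253). Hemocytin (TRINITY_DN25627_c0_g12), a clotting protein of insect blood cells, had 6.85, 7.81 and 6.91 CPM in females and 5.60, 7.47 and 5.21 CPM in males, with overlap. The pair of lysM proteins that the word peptidoglycan also caught ran from 25.8 to 34.7 CPM in females and from 23.6 to 40.9 CPM in males, and neither passed the test.

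Dscam made up 12 members, of which 10 were tested. Lower in females was 1 and 9 did not pass, where 1.11% of all tested unigenes were called lower. Dscam proteins are cell adhesion molecules of neurons; Drosophila Dscam1 is also secreted by fat body and blood cells and binds bacteria. The log2 difference was negative for 9 of the 10, with a median of -0.15, where it was negative for 10603 of all 21196 tested unigenes. Some of the 10 share an assembly cluster, as TRINITY_DN26582_c0_g1 and TRINITY_DN26582_c0_g2 do, and may be pieces of 1 gene. The female libraries all lay below the male libraries for 2, where they did for 8.50% of all tested unigenes. The most abundant, a Dscam2 unigene (TRINITY_DN25691_c0_g1; 87.7 TPM as a mean level), had 133, 120 and 140 CPM in females and 127, 137 and 137 CPM in males. Its sexes overlapped, with a log2 difference of -0.03 ± 0.0799 (SE; edgeR adjusted p = 0.943). Another Dscam2 unigene, TRINITY_DN26043_c1_g1, had 103, 92.9 and 105 CPM in females, all below the 111, 112 and 118 CPM in males, and did not pass (log2 difference -0.18 ± 0.0749, SE; edgeR adjusted p = 0.356).

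The called member of the group was named Dscam-like protein 1 (TRINITY_DN20388_c0_g2). It had 20.7, 19.6 and 19.7 CPM in females and 25.9, 29.6 and 32.1 CPM in males. Every female library lay below every male library, and the females varied little. The log2 difference was -0.55 ± 0.105 (SE; edgeR adjusted p = 0.0182), 1.46-fold lower in females. Its Swiss-Prot match was oig-4 of Caenorhabditis elegans, a small secreted immunoglobulin protein that holds acetylcholine receptors at the neuromuscular junction. Its Pfam domain, an I-set immunoglobulin domain, is one that Dscam2 unigenes of the list carry too. The summed muscle markers given above were also lower in females. Of 35 tested, 0 were called higher, 4 were called lower and 31 did not pass, with 15 positive and 20 negative log2 differences. The part of these markers in the result was not tested. The call did not hold without female 2 (adjusted p = 0.113), female 3 (0.0765), male 2 (0.0953) or male 3 (0.0586).

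Among Toll ligands and receptors, 5 of 6 members were tested and 1 passed, where 2.80% of all tested unigenes did. That 1 was the unigene added by name, and none of the class matched by the words passed. Since members were chosen with earlier results known, no share of the class is read from this count. The Spaetzle-domain unigene TRINITY_DN23579_c0_g1 had 8.34, 8.02 and 5.11 CPM in females and 3.04, 2.83 and 4.30 CPM in males. All females lay above all males, with female 3 and male 3 nearest to each other. In level it stood at 6.60 ± 1.60 TPM in females and 2.90 ± 0.611 TPM in males (SD, n = 3 each). The CPM values gave a log2 difference of 1.07 ± 0.242 (SE; edgeR adjusted p = 0.0435), 2.10-fold higher in females. The call did not hold without female 1 (adjusted p = 0.0924), female 2 (0.199), male 1 (0.169) or male 2 (0.230), while the log2 difference stayed between 0.95 and 1.29 over all settings tried. The deposited table gives it no Swiss-Prot match, so which of the Spaetzle-type proteins it is was not tested. A fragment named Protein spaetzle (TRINITY_DN19026_c0_g2), with a Swiss-Prot match to Drosophila neurotrophin 1, had too few counts to test.

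Of the receptors none passed. The 2 unigenes named protein toll both carried the TIR domain, through which Toll receptors signal. TRINITY_DN23832_c0_g2, whose Swiss-Prot match was Drosophila Toll itself, had 56.2, 77.4 and 63.4 CPM in females and 53.7, 56.9 and 56.4 CPM in males. Female 1 lay within the male range and the other females above it; the log2 difference was 0.24 ± 0.109 (SE; edgeR adjusted p = 0.423). TRINITY_DN25212_c2_g5, whose match was Drosophila Toll-7, a receptor with roles in antiviral defence and in neurons, had 34.0, 34.7 and 31.6 CPM in females and 45.4, 37.7 and 40.2 CPM in males. Its females lay below all males, opposite to the first Toll unigene, and it did not pass (log2 difference -0.30 ± 0.0941, SE; edgeR adjusted p = 0.177).

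The other 2 receptor members were named toll-like receptor 13, after a vertebrate sensor of bacterial RNA, and neither had a TIR domain in the deposited table. TRINITY_DN26223_c0_g16 had 66.8, 47.6 and 26.8 CPM in females and 125, 101 and 59.4 CPM in males. Values varied 2.49-fold among the females and 2.10-fold among the males, and the highest female library lay above the lowest male library. In both sexes the values fell from library 1 to library 3. The log2 difference was -1.01 ± 0.310 (SE; edgeR adjusted p = 0.158), the most negative of the tested members. The edgeR adjusted p was 0.0277 without female 1 and 0.0458 without male 3. It was 0.000256 when the fit also held the replicate number as a block. These were the 3 of the 12 settings tried in which it passed. In the other 9 it did not, with an adjusted p of up to 0.431. In the authors' deposited table this unigene is marked significant, with an FDR of 0.0125. TRINITY_DN22883_c0_g2, with leucine-rich repeats and a Swiss-Prot match to Drosophila artichoke, a matrix protein of sensory cilia, had 45.4, 52.3 and 46.9 CPM in females and 35.2, 49.2 and 41.0 CPM in males, with overlap.

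Inside the cell, 4 of the 5 members of the Toll chain were tested and 0 passed (edgeR). All 4 had a positive log2 difference, where 10593 of all 21196 tested unigenes did. Of these, 2 had an unadjusted p under 0.05, where 12.0% of all tested unigenes did. All females lay above all males for 3 of them, where this held for 8.77% of all tested unigenes. Genes of the Toll chain outside the members were mixed in sign, with MyD88 at 0.17 and Tube at -0.14. The NF-kappa-B inhibitor cactus-like unigene (TRINITY_DN25831_c0_g6) had 74.8, 77.5 and 70.2 CPM in females and 57.3, 62.6 and 63.1 CPM in males, a log2 difference of 0.28 ± 0.0766 (SE; edgeR adjusted p = 0.101). Over the settings tried its adjusted p lay between 0.0582 and 0.399. The embryonic polarity protein dorsal unigene (TRINITY_DN26138_c2_g13), the NF-kB factor itself, had 80.5, 88.1 and 84.4 CPM in females and 77.5, 71.1 and 71.4 CPM in males, a log2 difference of 0.20 ± 0.0744 (SE; adjusted p = 0.272). Pelle is the kinase that acts upstream of both. The pelle kinase (TRINITY_DN22663_c0_g1) had 32.7, 37.6 and 35.5 CPM in females and 30.2, 32.0 and 30.8 CPM in males, a log2 difference of 0.19 ± 0.0875 (SE; adjusted p = 0.444). A further, scarce dorsal unigene (TRINITY_DN25278_c0_g9) ran from 1.60 to 2.60 CPM in females and from 1.5 to 2.07 CPM in males, with overlap. Summed over the 5 members, this class held 86.6, 92.1 and 86.3 TPM in females and 72.5, 71.9 and 71.1 TPM in males; this sum was not tested.

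**Figure D3:**
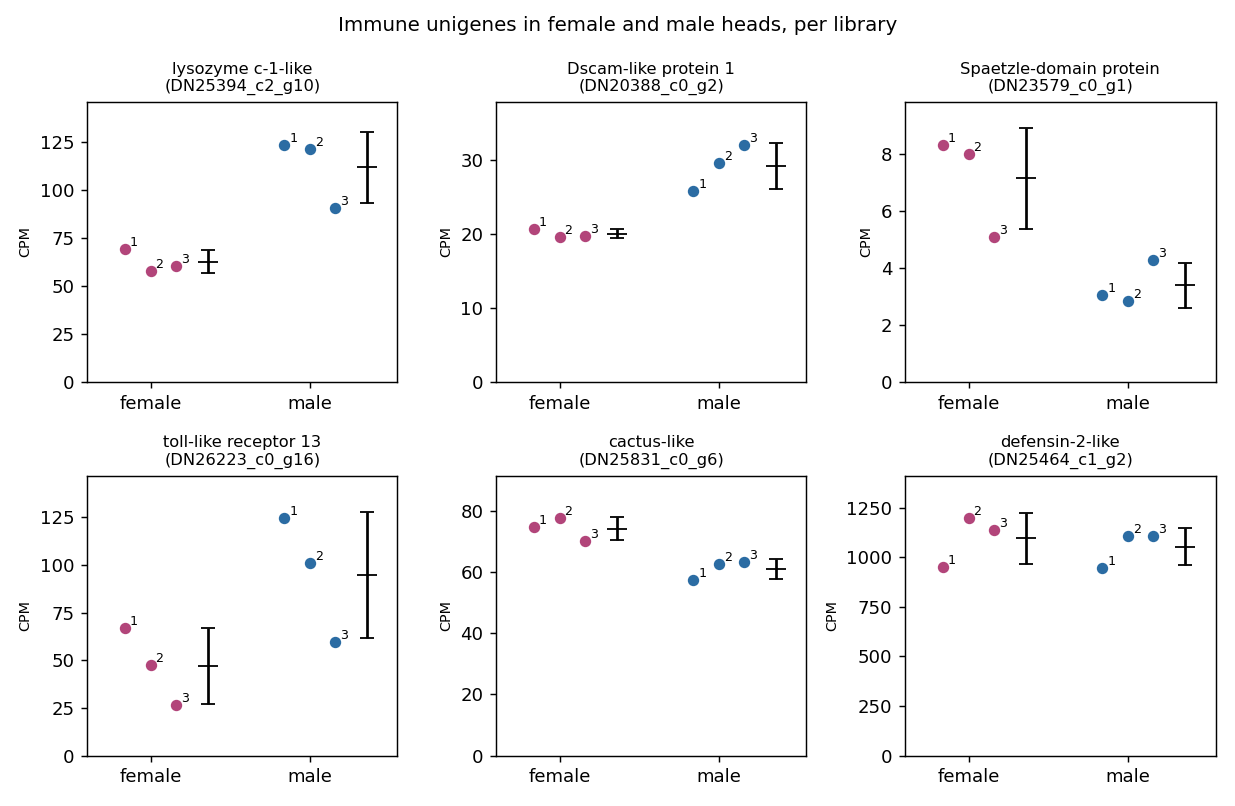
CPM of 6 members in each library (numbers mark the library), females left and males right, with the mean and SD of the 3 libraries as a bar. The upper row holds the 3 called members; in the lower row toll-like receptor 13 overlaps between the sexes, cactus-like does not, and defensin-2-like overlaps.

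The antimicrobial effectors held both the most abundant member and the call with the smallest p. Lysozyme c-1-like (TRINITY_DN25394_c2_g10), an enzyme that cleaves bacterial walls and in insects also serves digestion, had 69.3, 57.8 and 60.4 CPM in females and 123, 121 and 90.4 CPM in males. All females lay below all males. The log2 difference was -0.84 ± 0.122 (SE; edgeR adjusted p = 0.00344), 1.79-fold lower in females, and in level it stood at 26.1 ± 2.64 TPM in females and 43.4 ± 8.07 TPM in males (SD, n = 3 each). The call held in each of the 12 settings tried for single unigenes, with log2 differences from -0.97 to -0.76. The authors' deposited table gives it an FDR of 2.74e-07 and a log2 fold change of -0.83, yet does not mark it as significant. By CPM the summed fat body markers were lower in females as well, but 9 of the 11 tested had a positive log2 difference, with a median of 0.11. The 2 negative ones were the abundant apolipophorins (-0.44) and transferrin (-0.27). Of the 11, 2 were called higher, 1 was called lower and 8 did not pass. The part of these markers in the lysozyme result was not tested. A second, scarce lysozyme-like unigene (TRINITY_DN1444_c0_g1) ran from 0.718 to 1.05 CPM in females and from 0.622 to 1.40 CPM in males, with overlap.

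The defensin-2-like unigene (TRINITY_DN25464_c1_g2) encodes a relative of the insect defensins, short peptides that open bacterial membranes. With a mean of 1427 TPM it ranked 75 among all 41986 unigenes by level, above 99.8% of them. It had 951, 1196 and 1138 CPM in females and 944, 1109 and 1108 CPM in males. The sexes overlapped, with female 1 and male 1 the lowest; the log2 difference was 0.06 ± 0.106 (SE; edgeR adjusted p = 0.917). The other 39 members together held 790 to 835 TPM in females and 749 to 833 TPM in males, so this unigene alone outweighed the rest in every library.

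Of the melanisation enzymes, 0 of the 2 tested passed (edgeR; 0 also at an unadjusted p under 0.05). Phenoloxidase-activating factor 2 (TRINITY_DN26319_c1_g5), a clip-domain serine protease homologue that helps activate phenoloxidase in beetles, had 13.1, 15.8 and 13.8 CPM in females and 10.6, 12.4 and 13.5 CPM in males, with overlap (log2 difference 0.22 ± 0.136, SE; adjusted p = 0.617). Phenoloxidase 2 (TRINITY_DN23304_c0_g1), the copper enzyme that starts melanin formation and in Drosophila is made by crystal cells, had 1.22, 3.17 and 3.75 CPM in females and 1.36, 2.04 and 2.42 CPM in males. Females 2 and 3 lay above all males and female 1 below them (log2 difference 0.49 ± 0.387, SE; adjusted p = 0.723). The last member was caught only because "propeller" contains the word pelle: the tectonin beta-propeller unigene (TRINITY_DN24608_c3_g12), related to Drosophila Pex23, had 39.2, 41.4 and 43.1 CPM in females and 49.6, 47.2 and 46.4 CPM in males, and did not pass (adjusted p = 0.278).

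The other immune genes, found by words for further pathway members, held a single call: of 47 unigenes 45 were tested, 1 was higher in females, 0 were lower and 44 did not pass (edgeR), while 8 had an unadjusted p under 0.05. This is 2.22% called, beside 2.80% of all tested unigenes, of which 12.0% had such an unadjusted p. The median log2 difference was 0.01. The call was scavenger receptor class B member 1 (TRINITY_DN25504_c0_g2), of the CD36 family, which includes lipid and carotenoid transporters and Drosophila croquemort, a receptor for dying cells. Its Swiss-Prot match was sensory neuron membrane protein 2 of a moth, an olfactory protein of the antenna, so an immune role is not given by that annotation. It had 695, 794 and 739 CPM in females and 514, 613 and 498 CPM in males, with all females above all males. The log2 difference was 0.46 ± 0.0975 (SE; edgeR adjusted p = 0.0331), and the call did not hold without female 2 (adjusted p = 0.180), female 3 (0.0802), male 1 (0.147) or male 3 (0.0976).

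In the branches around Toll no unigene passed. Of the 4 tested unigenes of the Toll branch, 2 had a positive and 2 a negative log2 difference, with a median of -0.05. The negative ones were Tube (TRINITY_DN3398_c0_g1) at -0.14 and TRAF6 (TRINITY_DN21134_c0_g1) at -0.125. The smallest p of the Toll branch belonged to MyD88 (TRINITY_DN25294_c1_g8), the adaptor below Toll, with 16.3, 16.9 and 16.7 CPM in females and 15.0, 14.2 and 15.1 CPM in males; its sexes did not overlap (log2 difference 0.17 ± 0.105, SE; edgeR adjusted p = 0.601). In the Imd and NF-kB branch it was the NF-kB p100 unigene (TRINITY_DN24407_c0_g1), with a Swiss-Prot match to Drosophila Relish, the factor of the Imd pathway. It had 119, 129 and 137 CPM in females, all above the 106, 113 and 109 CPM in males (log2 difference 0.23 ± 0.0765, SE; edgeR adjusted p = 0.204). Tyrosine kinase hopscotch (TRINITY_DN25524_c0_g9), the JAK kinase of the JAK-STAT pathway, had a log2 difference of -0.16 (adjusted p = 0.507). AP-1 (TRINITY_DN22060_c0_g1), the transcription factor below JNK, stood at 0.28 (adjusted p = 0.374), and argonaute-2 (TRINITY_DN25235_c4_g3), with a Swiss-Prot match to human AGO2, at 0.25 (adjusted p = 0.718). The unigene that matches Drosophila AGO2, the slicer of antiviral RNA interference, was TRINITY_DN21532_c0_g2, far more abundant at a mean of 79.4 TPM, with a log2 difference of 0.03 ± 0.0685 (SE; edgeR adjusted p = 0.924). Among clotting and melanisation helpers, serine protease snake-like (TRINITY_DN24822_c1_g3), named after a protease that activates the Spaetzle cascade in Drosophila embryos, had 21.2, 26.7 and 32.6 CPM in females and 15.1, 17.1 and 18.9 CPM in males. Its sexes did not overlap, and it lay just short of the threshold (log2 difference 0.66 ± 0.157, SE, edgeR adjusted p = 0.0580). Without female 1 the adjusted p was 0.00746. The snake-like unigene passed in 4 of the 12 settings tried and not in the other 8, where its adjusted p reached 0.217.

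A wider view came from the KEGG assignment to the Toll and Imd signalling pathway in the deposited table, which placed 52 unigenes without a vertebrate match there, 9 of them members. Of the 48 tested, 0 passed (edgeR), 12 had an unadjusted p under 0.05, 11 had all females above all males and 5 had all females below, where the shares of all tested unigenes were 2.80%, 12.0%, 8.77% and 8.50%. The median log2 difference was -0.02.

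Further relatives of the members were found by the Swiss-Prot description or Pfam domain in place of the main description, a set chosen after the values were seen: 24 unigenes, 21 tested, 1 called (edgeR; 8 at an unadjusted p under 0.05). Called were 4.76% of the tested ones, beside 2.80% of all tested unigenes, of which 12.0% had such an unadjusted p. These relatives supply families for which the main words had no match. The Spaetzle domain was carried by 5 unigenes outside the words, TRINITY_DN23579_c0_g1 included. Of the 4 tested, 3, again with that unigene, had all females above all males, where 8.77% of all tested unigenes did. Values of that unigene were known when the set was chosen, so this count was partly fixed by the choice. No conclusion on the family is drawn from it. Besides the called one, TRINITY_DN26484_c2_g15, matching Drosophila spaetzle 3, had 67.4, 71.6 and 75.2 CPM in females and 45.8, 58.9 and 55.8 CPM in males (log2 difference 0.42 ± 0.0992, SE; edgeR adjusted p = 0.0574). It passed in 4 of the 12 settings tried, with a lowest adjusted p of 0.0250. TRINITY_DN25261_c2_g3 had 9.17, 9.55 and 6.86 CPM in females and 5.66, 6.11 and 5.37 CPM in males (log2 difference 0.58 ± 0.172, SE; adjusted p = 0.147). The fourth, TRINITY_DN26275_c2_g8, went the other way at -0.13 (adjusted p = 0.837).

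A further pair of TIR-domain receptors was listed under slit homolog descriptions. TRINITY_DN26092_c1_g2, matching Drosophila Toll-6, a neuronal receptor, had 50.8, 47.5 and 49.7 CPM in females and 57.1, 62.6 and 60.1 CPM in males. In CPM its females lay below all males (log2 difference -0.28 ± 0.0746, SE; edgeR adjusted p = 0.0918). In the authors' TPM the sexes overlapped, at 17.7 ± 2.51 TPM in females and 17.6 ± 0.0608 TPM in males (SD, n = 3 each). TRINITY_DN9802_c0_g1 had 50.3, 53.7 and 45.5 CPM in females and 50.1, 47.4 and 50.7 CPM in males, with overlap (log2 difference 0.01 ± 0.0846, SE; adjusted p = 0.983). The call of the set was TRINITY_DN24697_c2_g8, which has a C-type lectin domain and a Swiss-Prot match to human CSMD3, a large membrane protein of neurons. It had 42.7, 42.4 and 45.1 CPM in females and 27.2, 32.2 and 29.4 CPM in males, with no overlap (log2 difference 0.55 ± 0.0899, SE; edgeR adjusted p = 0.00685), and it was called in all 12 settings tried.

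The most variable effector of the female libraries was the unigene whose Swiss-Prot match is honeybee hymenoptaecin (TRINITY_DN23464_c0_g1), an antibacterial peptide of Hymenoptera. It had 288, 984 and 2049 CPM in females and 290, 320 and 309 CPM in males. Female 1 stood at the male level, female 2 at 3.21 times and female 3 at 6.69 times the male mean, while the males differed little. With a mean of 1357 TPM it ranked 78 among all unigenes by level, close to the defensin-2-like unigene. The log2 difference was 1.85 ± 0.5 (SE; edgeR adjusted p = 0.0978), 1.05 without female 3 (adjusted p = 0.258), and 2.31 without female 1, when it passed (adjusted p = 0.000123). In the authors' deposited table it is marked significant, with an FDR of 0.000906.

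**Figure D4:**
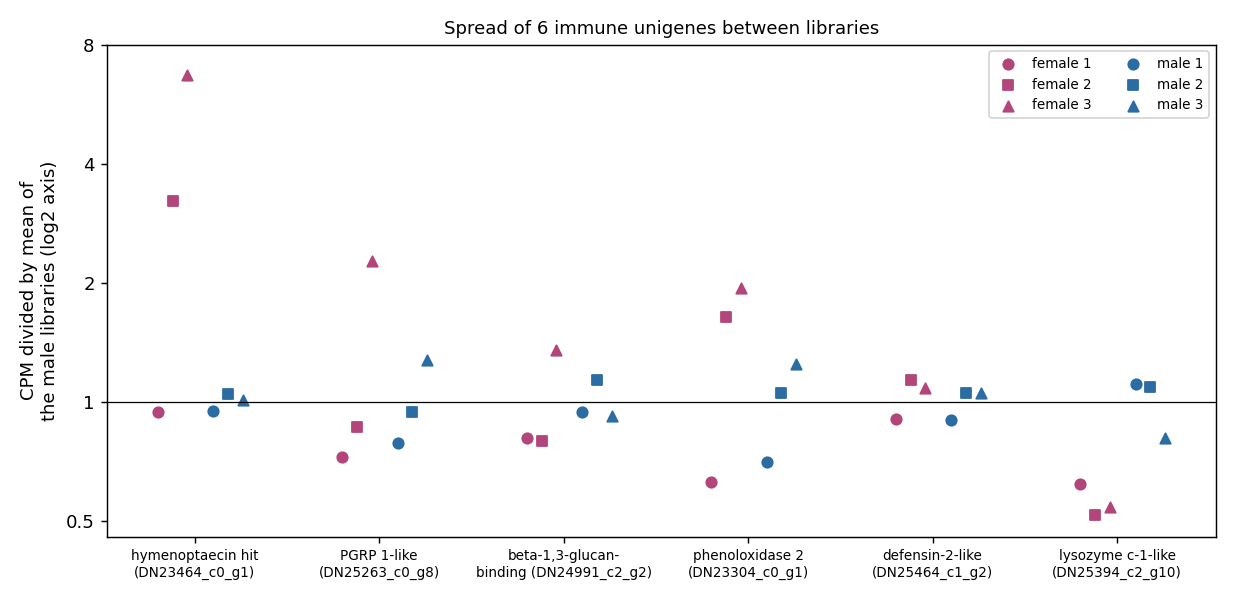
CPM of 6 immune unigenes divided by the mean of the 3 male libraries (log2 axis); symbols mark the library, females left of males. Female 3 is highest for the hymenoptaecin match at 6.69, for peptidoglycan recognition protein 1-like at 2.26, for the glucan-binding unigene at 1.35 and for phenoloxidase 2 at 1.94, but not for defensin-2-like.

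Female 3 was the highest library for the hymenoptaecin match, the peptidoglycan recognition protein 1-like unigene, the glucan-binding unigene TRINITY_DN24991_c2_g2 and phenoloxidase 2. Set against the mean of females 1 and 2, it was 3.22, 2.86, 1.68 and 1.71 times as high in these. For defensin-2-like the same ratio was 1.06, and for lysozyme c-1-like 0.951. Among the tested members 4 (11.8%) were at least 1.5 times as high in female 3 as in the mean of the other females, where 7.07% of all tested unigenes were. These were peptidoglycan recognition protein 1-like, the glucan-binding unigene, phenoloxidase 2 and the scarce Dscam2 unigene TRINITY_DN26161_c0_g2, which had 0.387, 1.05 and 1.30 CPM in females 1 to 3. Female 3 was the highest of the 6 libraries for 5 of the 34 tested members (14.7%, beside 15.2% of all tested unigenes). Female 2 was the highest for 11 (32.4%, beside 15.4%) and male 1 for 10 (29.4%, beside 19.7%). Summed haemocyte markers were lowest among females in female 3, at 437 CPM. Most of that sum came from the croquemort unigenes TRINITY_DN25015_c0_g1 and TRINITY_DN24947_c2_g1, at 251 and 109 CPM in female 3. Phenoloxidase 2, on the same marker list, was highest in female 3. Fat body markers summed to 8491 CPM there, between the other females. The part of either cell type in these values was not tested.

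In the authors' deposited table, 4 members have an FDR under 0.05 and 2 of them are marked significant: the Spaetzle-domain unigene TRINITY_DN23579_c0_g1 (log2 fold change 1.08, FDR 0.00238) and the toll-like receptor 13 unigene above. Dscam-like protein 1 has an FDR of 0.00547 there and is not marked. The rule of that mark is not given in the sources used here; the 2 marked members are those of the 4 whose deposited log2 fold change is at least 1 in size. The 7 vertebrate matches left out were 5 mouse, 1 human and 1 quail protein names, with 16 to 175 counts summed over the females and 0 to 209 over the males, and none passed the test where it was made.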

How the data were processed

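Poly(A) RNA was measured in 3 female and 3 male head libraries. Per the labels' protocols, reads were cleaned with Cutadapt, and Trinity 2.4.0 built the assembly, in which a cluster's longest transcript stands for the unigene. The sources used here name neither the read counter nor the authors' test. Per the file headers, the deposited table holds expected counts and TPM values, both computed by the authors per library, together with the authors' own comparison of females over males as a log2 fold change, a p-value and an FDR, used only where named.

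Expected counts were rounded (8.81% to 9.50% were not whole) and tested with edgeR 4.0.16 in R 4.3.3 by its quasi-likelihood test, after TMM scaling and a filterByExpr filter (at least 10 counts, total at least 15), with Benjamini-Hochberg adjustment over 21196 unigenes and a threshold of 0.05. CPM values use the TMM-scaled totals. The standard error is the log2 difference divided by the square root of its F value. The steps were tested on simulated counts. Groups came from the sex in the labels.

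The members, the word lists and the marker lists were chosen with earlier results of these data known. Named were the added unigene, all called members, the 2 most abundant members and the smallest p of each role, and the call or smallest p of each other branch; further unigenes were named after their values were seen. Alternatives were DESeq2 1.42.0 (size factors, Wald test), 2 other filters, a replicate block, leaving out each library or all vertebrate matches, a size rule and summed clusters. Python 3.11.15, pandas 2.3.3, numpy 2.4.6 and matplotlib 3.10.9 were used for tables and plots. Unigene sequences were not used here.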

Additional observations from a re-analysis of the deposited data

How the results depend on the processing

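The count of called members was 3 and lay between 1 and 3 when each library was left out in turn; it was 1 when a log2 difference of at least 1 was also required. Over all tested unigenes the count of 593 lay between 357 and 688 with a library left out, and was 271 under the size rule and 804 under DESeq2's Wald test. The single call among the other immune genes became 3 under DESeq2's Wald test, 3 without vertebrate matches and 2 with the replicate block, and 0 to 3 with a library left out; the cause was not tested. Of 20 named unigenes, 15 had the same call in each of the 12 settings, and none changed sign while called. The share of members without overlap between the sexes was 35.3% by TPM, against 29.4% by CPM. Over all tested unigenes it was 17.3% by CPM and was not computed by TPM, so the 35.3% has no background here.

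Over all tested unigenes, no pairing by replicate number was seen: correlations of deviations between same-numbered libraries were -0.0193, -0.0699 and -0.0090. A shared effect on only part of the unigenes could be missed by such correlations, and the labels do not say what the numbers share. With the replicate block 3 members were called, 0 higher and 3 lower in females, the toll-like receptor 13 unigene TRINITY_DN26223_c0_g16 (adjusted p = 0.000256) in place of the Spaetzle-domain unigene. Without a filter on low counts the Spaetzle-domain unigene did not pass (adjusted p = 0.0598). The 6 fragments left out by the filter had at most 12 counts in a library, which limits the precision of their values.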
